A study of Mus musculus with 14 samples.

Results

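The amino acid stress genes described here are 10 genes, the transcription factor Atf4 and 9 genes known as its targets or partners: Ddit3, Trib3, Chac1, Asns, Atf3, Atf5, Sesn2, Ppp1r15a and Psat1. They were picked by their symbols, with earlier results of these data known, and are 10 of the 49671 genes in the table. All 10 had enough reads to be among the 15973 genes tested. Their RNA was followed in C2C12 cells, an immortalized line of mouse skeletal muscle myoblasts, by RNA sequencing of 14 libraries in 7 groups of 2. DM2 at day 2 and day 7 was a medium with 10% fetal calf serum (FCS) and an adipogenic cocktail of 1 µg/ml insulin, 0.5 mM IBMX (a phosphodiesterase inhibitor), 0.5 µM dexamethasone (a glucocorticoid) and 2 µM rosiglitazone (a PPAR-gamma agonist). DM3 at day 2 and day 7 held the same cocktail with 2% horse serum (HS). DM1 at day 2 and day 7 held 2% HS and no cocktail. At day 0 the cells were in growth medium with 20% FCS. The 3 differentiation media were renewed every other day. All groups are the same immortalized line. The labels number the replicates but name no separate cultures, and every p-value here rests on a spread between libraries that may be technical. DM3 and DM1 differ in the cocktail alone, DM3 and DM2 in their serum (its kind and its amount), and DM2 and DM1 in cocktail and serum alike.

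Cells that run short of amino acids, or whose endoplasmic reticulum (ER) is loaded with unfolded protein, phosphorylate the translation factor eIF2alpha through kinases such as GCN2 (Eif2ak4) and PERK (Eif2ak3). General protein synthesis then slows, while ATF4 protein is made in greater amounts because of upstream reading frames in its mRNA. ATF4 with its partners, among them C/EBP proteins and CHOP (Ddit3), turns on genes for amino acid synthesis, uptake and tRNA charging, together with the feedback genes Trib3 and Ppp1r15a. In skeletal muscle this response is known from fasting, mitochondrial disease and atrophy. RNA levels alone show neither the phosphorylation of eIF2alpha nor the amount of ATF4 protein.

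The libraries held 21907617 to 29784885 expected counts (estimated reads per gene) and 17750 to 21111 genes with at least 1 count, and the 10 genes had between 76 and 26406 counts in a library. Levels are CPM, counts put on a common library size by TMM, a scale that compares 1 gene between libraries and not 1 gene with another. Gene positions are on GRCm38 (Gencode vM21). Log2 fold changes are given ± SE, and a gene was called at a Benjamini-Hochberg adjusted p under 0.05 from edgeR's quasi-likelihood test over all 15973 genes. Processed pseudogenes took 0.584 to 3.86% of the counts, and in day 0 replicate 1, DM1 day 2 replicate 1 and DM3 day 2 replicate 2 they took 1.28, 1.29 and 0.584%, less than in the other library of each group. DM3 day 2 replicate 2 also had the fewest genes with at least 1 count, 17750, against 20067 in its other library. Counts that were not whole made up 4.18% of its genes, against 9.66%. Every DM3 day 2 comparison rests on these 2 libraries. The myoblast markers Myod1 and Des were present in all libraries, at 16.1 to 146 CPM and 427 to 2070 CPM. Both were lowest in DM2 at day 7. In bulk RNA, a higher level in every cell and a higher share of expressing cells cannot be told apart.

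DM2 at day 7 was the highest of the 7 groups for all 10 genes, and for each gene both of its libraries lay above the libraries of every other group. The share of all genes tested with that order was not counted. Against day 0 alone, a different measure, all 10 genes and 24.5% of all genes tested were called higher in that group. At day 2 of the same medium 9 of the 10 were called lower than at day 0, as were 26.2% of all genes tested. Most of the genes fell early in DM2, and all were higher at its day 7 than at its day 2. The rises called between these days in DM3 and in DM1 were smaller for every gene. Over day 0 the late rise in DM2 was smallest for Psat1, with means of 656 CPM at day 7 and 484 CPM at day 0. The lowest group differed between genes. By mean it was DM2 at day 2 for Atf4, Atf3, Sesn2 and Ppp1r15a, DM3 at day 2 for Trib3, Chac1, Asns and Atf5, day 0 for Ddit3, and DM3 at day 7 for Psat1. For Atf4, Chac1, Psat1 and Ddit3 the difference from the next lowest group did not pass the test (edgeR adjusted p = 0.856, 0.352, 0.463 and 0.29).

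**Figure D1:**
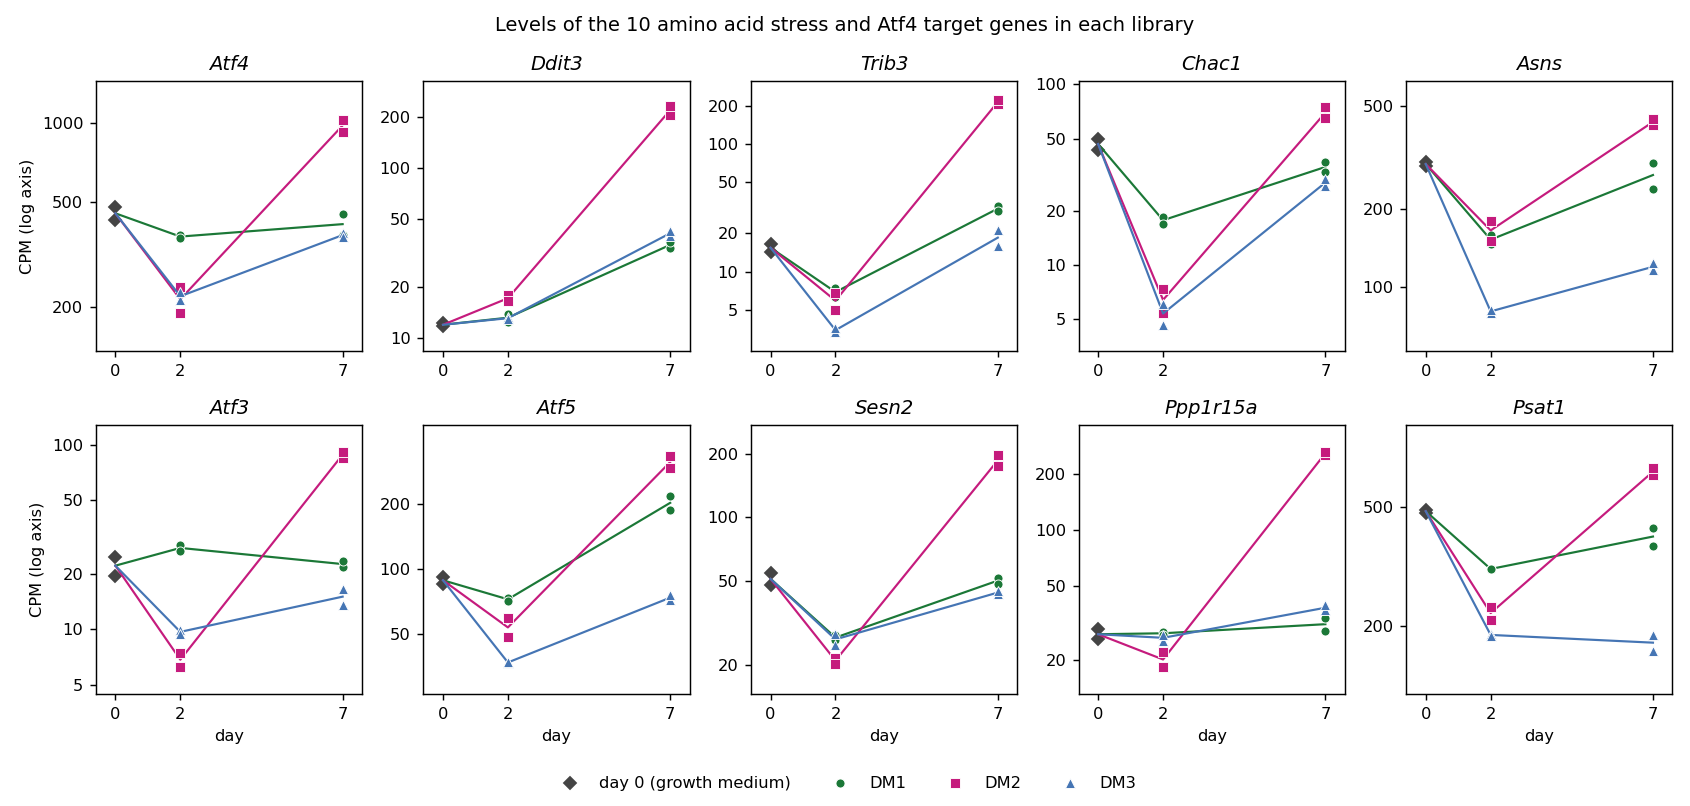
Level of each of the 10 genes in CPM (log axis, a separate range for each gene) against the day in the medium, with 1 point for each library and lines through the group means. Diamonds are day 0, squares DM2, triangles DM3 and circles DM1. The squares of day 7 stand above all other points in every panel, at 923 and 1027 CPM for Atf4 and 204 and 222 CPM for Trib3.

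Because these genes moved together, their promoters are shown where a binding motif of the family was found. The 250 bases before the annotated start (RefSeq, GRCm38.p6) were searched on both strands for 4 motifs. A gene can have more than 1 such start, and the 10 genes had 12 windows. The C/EBP-ATF composite site TTGCATCA lay in 2 of the 12, 1 of Atf3 and 1 of Chac1, and in 0.791% of all 32851 promoter windows. The looser form TGATGNAA, whose reverse complement takes in TTGCATCA, lay in 3 of the 12, 1 each of Atf3, Chac1 and Asns, and in 3.45% of windows. The cAMP response element TGACGTCA lay in 1 of the 12, of Ppp1r15a, and in 1.55% of windows. The ER stress element was in none (0) of the 12 and in 0.113% of windows. The stretches below run 5′ to 3′ on the gene's own strand, with the match in capitals. They are Atf3 at chr1:191183346-191183533 on the minus strand, Chac1 at chr2:119350992-119351146 on the plus strand, Asns at chr6:7693214-7693243 on the minus strand, and Ppp1r15a at chr7:45526269-45526329 on the minus strand. The Asns stretch overlaps an exon of the Gencode vM21 annotation. The Atf3 stretch lies inside the Gencode span of that gene, so the RefSeq start used there is not its outermost one. A match describes letters in the window, and binding was not measured.
Atf3: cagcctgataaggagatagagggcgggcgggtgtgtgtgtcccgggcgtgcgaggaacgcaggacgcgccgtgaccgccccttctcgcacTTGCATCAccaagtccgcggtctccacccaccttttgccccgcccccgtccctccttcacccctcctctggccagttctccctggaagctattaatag
Chac1: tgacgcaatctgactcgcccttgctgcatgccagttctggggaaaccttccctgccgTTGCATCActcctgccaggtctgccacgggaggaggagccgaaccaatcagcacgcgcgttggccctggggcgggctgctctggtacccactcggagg
Asns: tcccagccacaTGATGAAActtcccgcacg
Ppp1r15a: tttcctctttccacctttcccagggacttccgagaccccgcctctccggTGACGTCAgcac

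Atf4 (chromosome 15, 80255184 to 80257541, plus strand), the transcription factor at the centre of the response, had 478 and 426 CPM at day 0, 237 and 189.9 CPM in DM2 at day 2, and 923 and 1027 CPM in DM2 at day 7. In DM3 it had 379.7 and 368 CPM at day 7, against 211 and 227 CPM at day 2. In DM1 it had 449 and 374 CPM at day 7, against 373 and 365 CPM at day 2. The day 2 libraries of DM2 and DM3 overlapped and were the lowest, and day 0 overlapped DM1 at day 7. Atf4 was 4.57-fold higher in DM2 at day 7 than at day 2 (log2 2.19 ± 0.125, edgeR adjusted p = 4.59e-08) and 2.16-fold higher than at day 0 (log2 1.11 ± 0.12, edgeR adjusted p = 7.42e-06). It rose 1.71-fold in DM3 at day 7 against day 2 (log2 0.77 ± 0.12, edgeR adjusted p = 0.000223). Its log2 change in DM1 was 0.16 ± 0.12, which did not pass the test (edgeR adjusted p = 0.347).

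Ddit3 (chromosome 10, 127290774 to 127296288, plus strand) encodes CHOP, a C/EBP family factor induced by ATF4 that is known for promoting cell death under lasting ER stress and for hindering fat cell differentiation. It had 12.2 and 11.7 CPM at day 0, 17.8 and 16.4 CPM in DM2 at day 2, and 207 and 233 CPM in DM2 at day 7. Its levels in DM3 were 40.0 and 42.8 CPM at day 7, against 13.2 and 12.9 CPM at day 2. Its levels in DM1 were 33.7 and 36.9 CPM at day 7, against 12.4 and 13.9 CPM at day 2. Ddit3 was alone among the 10 in lying above day 0 in both DM2 libraries of day 2, and its day 7 libraries were above its day 2 libraries in every medium. In DM2 it was 12.8-fold higher at day 7 than at day 2 (log2 3.68 ± 0.10, edgeR adjusted p = 4.3e-10) and 18.4-fold higher than at day 0, the steepest rise over day 0 of the 10. It rose 3.16-fold in DM3 and 2.68-fold in DM1 over the same days. The gene overlaps Mars, a tRNA synthetase gene with up to 7656 counts, on the opposite strand. The libraries were strand-specific, but the strand setting of the counting is not given in the sources used here.

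Atf3 (chromosome 1, 191170296 to 191218039, minus strand) encodes a stress-induced factor of the same basic leucine zipper class, downstream of ATF4 and of other signals. It had 24.7 and 19.5 CPM at day 0, 7.49 and 6.22 CPM in DM2 at day 2, and 84.7 and 91.8 CPM in DM2 at day 7. DM3 libraries held 13.6 and 16.5 CPM at day 7, against 9.91 and 9.49 CPM at day 2. DM1 libraries held 21.8 and 23.3 CPM at day 7, against 28.7 and 26.5 CPM at day 2. Atf3 was the only member whose day 7 libraries in DM1 were both below those of day 2, a difference that did not pass the test (log2 -0.29 ± 0.13, edgeR adjusted p = 0.11). In DM2 it was 12.9-fold higher at day 7 than at day 2 (log2 3.69 ± 0.15, edgeR adjusted p = 4.17e-09) and 3.99-fold higher than at day 0. It rose 1.55-fold in DM3.

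Atf5 (chromosome 7, 44812256 to 44816658, minus strand), a relative of ATF4 known for the mitochondrial stress response, had 91.9 and 84.8 CPM at day 0, 58.8 and 48.0 CPM in DM2 at day 2, and 292 and 333 CPM in DM2 at day 7. It stood at 71.4 and 75.3 CPM in DM3 at day 7, against 36.5 and 36.9 CPM at day 2. It stood at 216 and 188 CPM in DM1 at day 7, against 73.3 and 70.8 CPM at day 2. Atf5 was the gene for which DM1 at day 7 came nearest to DM2 at day 7 in fold, though the libraries did not overlap. It was 5.85-fold higher in DM2 at day 7 than at day 2 (log2 2.55 ± 0.11, edgeR adjusted p = 8.85e-09), 2-fold higher in DM3 and 2.8-fold higher in DM1. It overlaps Nup62, with up to 3396 counts, on the opposite strand.

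Trib3 (chromosome 2, 152337422 to 152344032, minus strand) encodes a pseudokinase that binds ATF4 and CHOP and dampens their output, and that is also known to bind the kinase Akt. It had 16.4 and 14.4 CPM at day 0, 6.85 and 5.0 CPM in DM2 at day 2, and 204 and 222 CPM in DM2 at day 7. For DM3 it had 15.9 and 21.0 CPM at day 7, against 3.35 and 3.62 CPM at day 2. For DM1 it had 32.7 and 29.6 CPM at day 7, against 7.47 and 6.38 CPM at day 2. All day 2 libraries lay below day 0, and the day 7 libraries of DM3 overlapped day 0. Trib3 had the largest change of the 10 between the days of DM2, 36-fold (log2 5.17 ± 0.18, edgeR adjusted p = 2.13e-09), and was 13.9-fold higher than at day 0. It rose 5.29-fold in DM3 and 4.51-fold in DM1.

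Ppp1r15a (chromosome 7, 45522916 to 45526268, minus strand) encodes GADD34, the induced subunit that brings protein phosphatase 1 to eIF2alpha and so closes the feedback loop. It had 29.2 and 25.8 CPM at day 0, 22 and 18.3 CPM in DM2 at day 2, and 254 and 264 CPM in DM2 at day 7. Its DM3 libraries had 37.0 and 39.5 CPM at day 7, against 25.3 and 27.4 CPM at day 2. Its DM1 libraries had 28.7 and 33.7 CPM at day 7, against 28.5 and 27.3 CPM at day 2. Outside DM2 at day 7 its groups lay close together, and day 0 overlapped DM3 and DM1 at day 2. The rise in DM2 was 12.9-fold from day 2 (log2 3.69 ± 0.12, edgeR adjusted p = 1.2e-09) and 9.41-fold over day 0. In DM3 it rose 1.45-fold, and in DM1 its log2 change of 0.16 ± 0.11 did not pass the test (edgeR adjusted p = 0.284).

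Chac1 (chromosome 2, 119351229 to 119354381, plus strand) encodes an enzyme that breaks down glutathione and is among the most inducible ATF4 and CHOP targets. It had 50.0 and 43.3 CPM at day 0, 7.37 and 5.42 CPM in DM2 at day 2, and 65.0 and 74.5 CPM in DM2 at day 7. The DM3 values were 27.3 and 29.8 CPM at day 7, against 4.67 and 6.09 CPM at day 2. The DM1 values were 37.0 and 32.8 CPM at day 7, against 18.4 and 16.9 CPM at day 2. Chac1 had the deepest early fall of the 10, with the day 2 libraries of DM2 and DM3 overlapping far below all others. It was 10.9-fold higher in DM2 at day 7 than at day 2 (log2 3.45 ± 0.17, edgeR adjusted p = 1.44e-08), 5.29-fold higher in DM3 and 1.97-fold higher in DM1. Against day 0 its DM2 level of day 7 was 1.49-fold higher (log2 0.58 ± 0.15, edgeR adjusted p = 0.00509). That call was lost without day 0 replicate 2 (log2 0.475, edgeR adjusted p = 0.0544) and without DM2 day 7 replicate 2 (log2 0.475, edgeR adjusted p = 0.056).

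Asns (chromosome 6, 7675169 to 7693254, minus strand) encodes asparagine synthetase, a standard readout of ATF4 under amino acid shortage. It had 303 and 294 CPM at day 0, 180.4 and 151 CPM in DM2 at day 2, and 422 and 446 CPM in DM2 at day 7. It measured 116 and 124 CPM in DM3 at day 7, against 79.4 and 81.8 CPM at day 2. It measured 301 and 240.2 CPM in DM1 at day 7, against 146.5 and 158.5 CPM at day 2. Both days of DM3 lay below every other library, while DM1 at day 7 overlapped day 0. Asns had the smallest change of the 10 between the days of DM2, 2.62-fold (log2 1.39 ± 0.12, edgeR adjusted p = 9.81e-07). It rose 1.49-fold in DM3 and 1.78-fold in DM1.

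Psat1 (chromosome 19, 15904678 to 15947337, minus strand) encodes phosphoserine aminotransferase, a step of serine synthesis. It had 489.6 and 478 CPM at day 0, 232 and 209.6 CPM in DM2 at day 2, and 638 and 673 CPM in DM2 at day 7. With DM3 it was at 165 and 187 CPM at day 7, against 188 and 186 CPM at day 2. With DM1 it was at 425 and 371 CPM at day 7, against 311 and 309 CPM at day 2. Psat1 was the 1 gene that did not rise between the days of DM3, where its libraries overlapped (log2 -0.09 ± 0.09, edgeR adjusted p = 0.463). In DM2 it was 2.97-fold higher at day 7 than at day 2 (log2 1.57 ± 0.09, edgeR adjusted p = 6.71e-08). Its rise over day 0 was 1.36-fold (log2 0.44 ± 0.09, edgeR adjusted p = 0.00139), a call lost when libraries were scaled by their totals (log2 0.21, edgeR adjusted p = 0.0635). Its rise in DM1, 1.28-fold (edgeR adjusted p = 0.00937), lost the call without DM1 day 2 replicate 1, without DM1 day 2 replicate 2 or without DM1 day 7 replicate 1 (edgeR adjusted p = 0.061, 0.0631 and 0.0963). Psat1 was the only member with counts that were not whole, in 13 of the 14 libraries, as happens where RSEM divides reads between genes.

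Sesn2 (chromosome 4, 132492032 to 132510501, minus strand) encodes sestrin 2, a leucine sensor that holds back the growth kinase mTORC1 and an ATF4 target. It had 54.2 and 47.9 CPM at day 0, 21.6 and 20.2 CPM in DM2 at day 2, and 176 and 197 CPM in DM2 at day 7. Cells in DM3 had 43.1 and 44.8 CPM at day 7, against 24.8 and 28.0 CPM at day 2. Cells in DM1 had 51.7 and 48.5 CPM at day 7, against 27.5 and 26.2 CPM at day 2. The day 2 libraries of all 3 media were below those of day 0 and day 7, and DM1 at day 7 overlapped day 0. Sesn2 was 8.93-fold higher in DM2 at day 7 than at day 2 (log2 3.16 ± 0.10, edgeR adjusted p = 1.2e-09) and 3.66-fold higher than at day 0. It rose 1.67-fold in DM3 and 1.86-fold in DM1.

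Against day 0, most of these genes were called lower at day 2 in DM2 and DM3, and 5 of the 10 in DM1. In DM2 at day 2, 9 of the 10 fell and 1, Ddit3, rose 1.43-fold, where 26.2% of all genes tested were called lower and 23.5% higher. The falls ran to 7.3-fold for Chac1, 3.23-fold for Atf3, 2.6-fold for Trib3 and 2.12-fold for Atf4, and the smallest was 1.37-fold for Ppp1r15a, whose call was lost without the 3 libraries of low pseudogene share (log2 -0.36, edgeR adjusted p = 0.0607). In DM3 at day 2, 8 of the 10 fell and 0 rose, where 25.4% of genes were called lower and 25.5% higher. Chac1 fell 8.64-fold and Trib3 4.41-fold there, while Ddit3 and Ppp1r15a did not pass the test. In DM1 at day 2, 5 fell and 0 rose, where 14.6% of genes were called lower and 15.2% higher. The 5 were Chac1 at 2.64-fold, Trib3 at 2.22-fold, Asns at 1.96-fold, Sesn2 at 1.9-fold and Psat1 at 1.56-fold, and Atf4 had a log2 change of -0.29 ± 0.12 (edgeR adjusted p = 0.087). Some calls in DM1 at day 2 were gained under alternatives. With library totals Atf3 was called higher (log2 0.378, edgeR adjusted p = 0.0365). With only the groups compared, Atf4 (log2 -0.275, edgeR adjusted p = 0.0206) and Atf5 (log2 -0.275, edgeR adjusted p = 0.0122) were called lower. DESeq2 also called Atf5 lower (log2 -0.281, DESeq2 adjusted p = 0.0456). The median log2 change of the 10 was -1.11 in DM2, -1.23 in DM3 and -0.47 in DM1, beside 0.01, -0.03 and -0.002 for all genes tested. These comparisons share the day 0 libraries.

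By day 7 the media had parted. In DM2, 10 of the 10 were higher than at day 0 with a median log2 change of 1.85 (all genes -0.03), where 24.5% of genes were called higher and 30.9% lower. With libraries scaled by their totals, 30.3% of the called genes were higher in that comparison, against 44.3% with TMM, and 9 of the 10 were called. In DM3, 2 were higher (Ddit3 3.46-fold and Ppp1r15a 1.39-fold) and 5 were lower (Psat1 2.75-fold, Asns 2.49-fold, Chac1 1.63-fold, Atf3 1.47-fold and Atf5 1.2-fold), where 28.9% of genes were called higher and 30.1% lower. The share of called genes that were higher there was 37% with library totals and 48.9% with TMM. With library totals 2 of the 10 were higher and 7 lower, and Atf4 (log2 -0.48, edgeR adjusted p = 0.00271) and Sesn2 (log2 -0.42, edgeR adjusted p = 0.000837) were then called lower. Atf5 was near the threshold (edgeR adjusted p = 0.0492) and lost the call without either day 0 library or either DM3 day 7 library. Atf3 lost its call without the 3 libraries of low pseudogene share (log2 -0.38, edgeR adjusted p = 0.0508). In DM1, 3 were higher (Ddit3 2.95-fold, Atf5 2.29-fold and Trib3 2.03-fold) and 2 were lower (Chac1 1.34-fold and Psat1 1.22-fold), where 27.7% of genes were called higher and 25.8% lower. The Chac1 call was lost without day 0 replicate 1 (log2 -0.32) or DM1 day 7 replicate 2 (log2 -0.34). The Psat1 call was lost without either day 0 library or DM1 day 7 replicate 2 (log2 -0.27, -0.30 and -0.19).

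**Figure D2:**
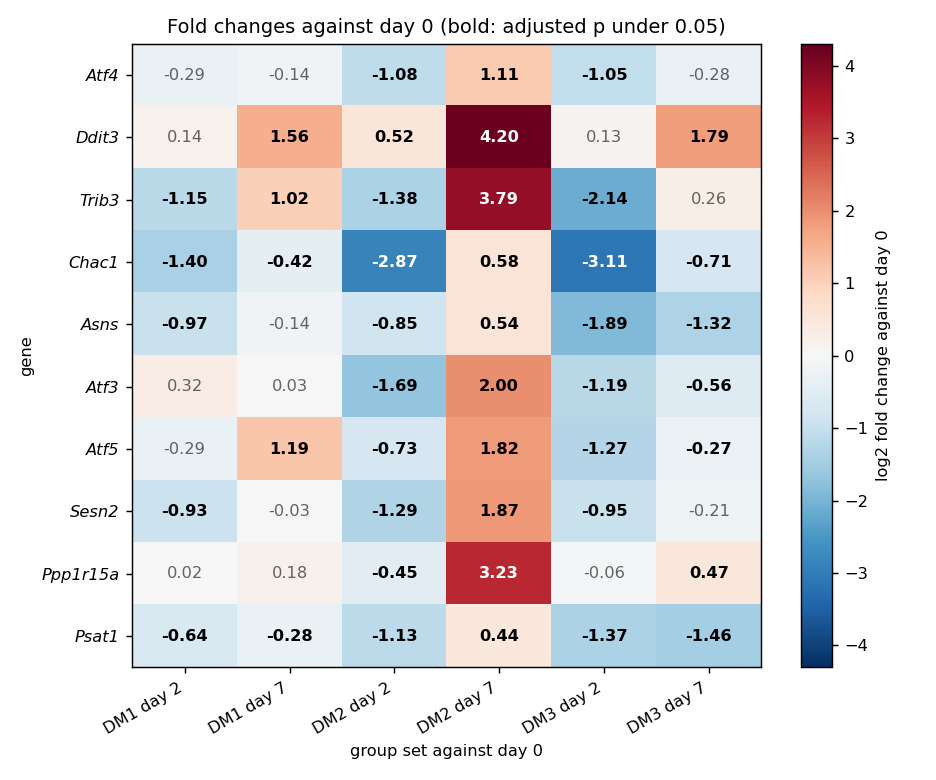
Log2 fold change of each gene (rows) in each medium and day (columns) against day 0, with red for higher and blue for lower than day 0 and bold numbers for an adjusted p under 0.05. The DM2 day 7 column is red and bold for all 10 genes, from 0.44 for Psat1 to 4.20 for Ddit3, and the DM2 day 2 column is blue for all but Ddit3.

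Between the days of a medium, 10 of the 10 rose in DM2 (25.4% of genes tested were called higher and 29.4% lower), 9 rose in DM3 (22.6% higher and 25.3% lower) and 7 rose in DM1 (16.8% higher and 17.5% lower), and 0 fell. The median log2 change of the 10 at day 7 against day 2 was 3.30 in DM2, 0.76 in DM3 and 0.86 in DM1, beside -0.01, 0.02 and 0.04 for all genes. The 10 genes moved most unequally in DM2, between 2.62-fold for Asns and 36-fold for Trib3. Trib3, Atf3, Ppp1r15a and Ddit3 had the highest folds there, and Asns, Psat1 and Atf4 the lowest. Scaling by library totals moved the median of all genes in DM2 by -0.26 and in DM3 by -0.19. The share of called genes that were higher was then 28.9% in DM2 and 30.8% in DM3, against 46.4 and 47.3% with TMM. Under that scaling 10 of the 10 were called higher in DM2. In DM3 9 were called higher and 1, Psat1, lower (log2 -0.28, edgeR adjusted p = 0.0209).

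The change between the days itself differed between DM2 and each of DM3 and DM1 for all 10 genes. The changes in DM3 and DM1 were not tested against each other. The DM2 change minus the DM3 change was called higher for 10 of the 10 (19.8% of genes called higher and 20% lower), and ran between 0.82 ± 0.16 for Asns and 3.15 ± 0.16 for Ppp1r15a on the log2 scale. The DM2 change minus the DM1 change was also called higher for 10 of the 10 (23% of genes called higher and 26% lower). It ran between 0.56 ± 0.16 for Asns (edgeR adjusted p = 0.0117) and 3.98 ± 0.19 for Atf3 (edgeR adjusted p = 3.47e-08). With library totals the Asns difference was 0.33 and lost the call (edgeR adjusted p = 0.104), and 33.3% of all called genes were higher, against 47% with TMM. Both differences share the DM2 libraries.

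**Figure D3:**
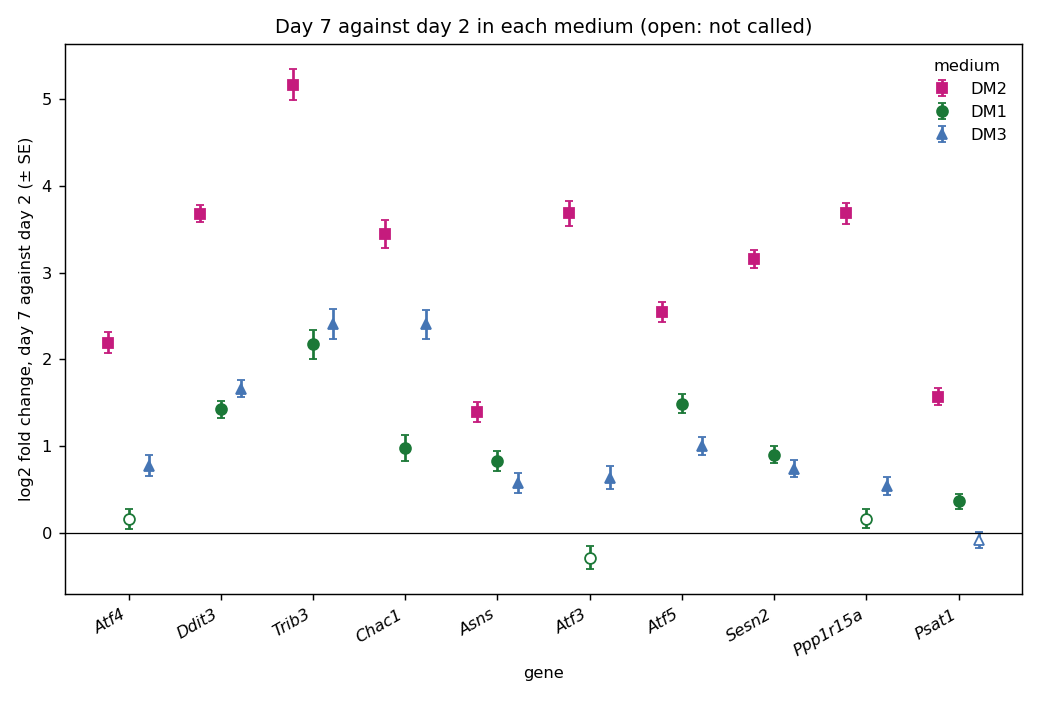
Log2 fold change at day 7 against day 2 (± SE) for each gene in DM2 (squares), DM1 (circles) and DM3 (triangles), with open symbols where the adjusted p was not under 0.05. The squares are the highest symbol for every gene, from 1.39 for Asns to 5.17 for Trib3, and 4 symbols are open, 3 in DM1 and 1 in DM3.

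At day 7 the medium with horse serum and the cocktail was set against the medium with FCS and the same cocktail. In DM3, 10 of the 10 genes were lower than in DM2, where 25.2% of genes tested were called lower and 27.5% higher, and the median log2 difference of the 10 was -2.09 (all genes 0.01). Trib3 was 11.6-fold lower in DM3, Ppp1r15a 6.77-fold, Atf3 5.86-fold and Ddit3 5.31-fold, and the smallest differences were 2.44-fold for Chac1 and 2.61-fold for Atf4. In DM2, 10 of the 10 were higher than in DM1, where 26.5% of genes were called higher and 31.4% lower. With library totals 29.3% of the called genes were higher in that comparison, against 45.8% with TMM. Ppp1r15a was 8.31-fold higher in DM2 than in DM1, Trib3 6.84-fold, Ddit3 6.22-fold and Atf4 2.37-fold, and the smallest differences were 1.55-fold for Atf5 and 1.6-fold for Asns.

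With horse serum in both media, the medium with the cocktail held less RNA of several of the genes. At day 7, 5 were lower in DM3 and 1 was higher, where 25.1% of genes were called lower and 22.7% higher (27.3% of the called genes higher with library totals, against 47.5% with TMM). Atf5 was 2.75-fold lower, Psat1 and Asns 2.26-fold, Trib3 1.69-fold and Atf3 1.5-fold. Ppp1r15a was 1.23-fold higher (log2 0.29 ± 0.11, edgeR adjusted p = 0.0408), a call lost with library totals (log2 0.06, edgeR adjusted p = 0.674), without DM1 day 7 replicate 1 and without either DM3 library. Atf4 itself had a log2 difference of -0.14 ± 0.12 (edgeR adjusted p = 0.378). With library totals 8 were lower and 0 higher, and Atf4 (log2 -0.375, edgeR adjusted p = 0.0154), Chac1 (log2 -0.52) and Sesn2 (log2 -0.42) were then called lower. At day 2, 7 of the 10 were lower in DM3 than in DM1 and 0 higher, where 19.4% of genes were called lower and 17.6% higher. Chac1 was 3.27-fold lower, Atf3 2.85-fold, Trib3 1.98-fold and Atf4 1.68-fold, while Ddit3, Sesn2 and Ppp1r15a did not pass the test.

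At day 2 DM2 was also low against DM1. There 7 were lower and 1 higher, where 21.9% of genes were called lower and 17.5% higher. Atf3 was 4.02-fold lower in DM2, Chac1 2.76-fold and Atf4 1.73-fold, and Ddit3 was 1.3-fold higher. Without the 3 libraries of low pseudogene share 5 were called, all lower. The Ddit3 call was lost without DM1 day 2 replicate 1 (log2 0.30) or DM2 day 2 replicate 1 (log2 0.29). The Sesn2 call was lost without DM1 day 2 replicate 1 or DM2 day 2 replicate 2, and the Atf5 call without DM2 day 2 replicate 2. DM3 against DM2 at day 2 gave 3 higher and 4 lower, where 9.98% of genes were called higher and 6.31% lower (50.8% of the called genes higher with library totals, against 61.3% with TMM). That count was 1 when only the 4 libraries of the 2 groups entered the fit and 1 when the 3 libraries of low pseudogene share were left out, and without 1 library it was between 2 (without DM3 day 2 replicate 2) and 6 (without DM3 day 2 replicate 1). Asns, 2.05-fold lower in DM3 (edgeR adjusted p = 9.25e-05), was the gene that passed the test under every alternative, with adjusted p-values up to 0.0132.

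Over the 14 libraries the 10 genes followed each other closely but not equally. Pearson's r between the log2 levels of 2 members was 0.491 to 0.964 over the 45 pairs, with a median of 0.839. With Atf4 the closest were Atf3 (0.958), Sesn2 (0.948) and Trib3 (0.933), and the least close was Ddit3 (0.783). These are descriptions over 14 libraries that share 7 groups and their scaling, and the 2 DM2 libraries of day 7 weigh heavily in each. Among 10622 genes ranked, with a mean of at least 5 CPM, the 10 most like the mean profile of the members were Ccnd2 (r = 0.978), Xpot (0.969), Fam162a (0.961), Aars (0.959), Stk40 (0.958), AI413582 (0.958), Hspa9 (0.958), Yars (0.955), Ndrg1 (0.949) and Cdsn (0.948). Aars and Yars charge tRNAs, Xpot exports tRNA from the nucleus, Hspa9 is a mitochondrial chaperone and Ccnd2 is a D-type cyclin. Ndrg1, a stress-responsive gene, had a mean of 4720 CPM in DM2 at day 7, against 114 CPM at day 2, 41.6-fold higher, and Ccnd2 492 CPM, against 77.9 CPM. Closest to Atf4 itself were Stk40 (0.984), Sco2 (0.975) and Mfsd5 (0.963).

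The genes around this pathway were followed in DM2 at day 7 against day 2 in 7 lists, beside a median log2 change of -0.01 over all genes. These lists too were chosen with earlier results of these data known. Of all genes tested, 25.4% were called higher and 29.4% lower in DM2 over these days, 22.6 and 25.3% in DM3, and 16.8 and 17.5% in DM1. The enzymes of serine, glycine, one-carbon and proline synthesis rose in 10 of 12 cases and 1 fell, with a median log2 change of 2.19. Cth, the last step of transsulfuration, had 134 and 128 CPM at day 7, against 13.5 and 11.1 CPM at day 2 (10.7-fold), and Mthfd2, a mitochondrial one-carbon enzyme, had 313 and 333 CPM, against 52.8 and 50.3 CPM (6.27-fold). Shmt1, a cytosolic serine hydroxymethyltransferase, was 6.67-fold higher. Cbs, the first step of transsulfuration, went the other way at a very low level, with 0.113 and 0.0778 CPM at day 7, against 0.841 and 0.878 CPM at day 2. The same 12 genes had 9 higher and 2 lower in DM3 (22.6 and 25.3% of all genes) and 7 higher and 2 lower in DM1 (16.8 and 17.5% of all genes).

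Amino acid transporters rose in 9 of 12 cases and 1 fell (25.4 and 29.4% of all genes), with a median log2 change of 1.61. Slc7a1, a carrier of cationic amino acids, had 267 and 269 CPM at day 7, against 30.7 and 39.4 CPM at day 2 (7.65-fold). Slc7a11, the cystine importer, rose 6.96-fold, Slc6a9, a glycine carrier, 5.41-fold, and Slc7a5, the large neutral amino acid carrier, 4.41-fold. Slc43a1 fell 3.6-fold. The same 12 had 4 higher and 5 lower in DM3 (22.6 and 25.3% of all genes) and 7 higher and 0 lower in DM1 (16.8 and 17.5% of all genes). Cytosolic aminoacyl-tRNA synthetases rose in 17 of 20 cases and 1 fell, with a median of 1.17. Wars rose 4.65-fold, Aars 3.66-fold, Nars 2.9-fold and Sars 2.88-fold, and Dars fell 1.25-fold, a call lost without DM2 day 7 replicate 2 or DM2 day 2 replicate 1. In DM3 15 of the synthetases rose and 0 fell, and in DM1 11 rose and 0 fell.

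The eIF2alpha kinases, phosphatase parts and the exchange factor eIF2B moved less, with 9 of 14 higher and 4 lower and a median of 0.44. Dnajc3, an inhibitor of eIF2alpha kinases in the ER, rose 2.91-fold and Impact, an inhibitor of GCN2, rose 2.72-fold. Eif2ak2, the kinase PKR, fell 2.1-fold, Eif2ak4, the kinase GCN2, fell 1.73-fold, and Ppp1cb, a catalytic subunit of protein phosphatase 1, fell 1.3-fold, a call lost without DM2 day 7 replicate 2. Eif2b4 fell 1.25-fold (edgeR adjusted p = 0.0458), a call that DESeq2 did not give (adjusted p = 0.105) and that was lost without either DM2 day 7 library or DM2 day 2 replicate 1. In DM3 5 of the 14 were higher and 3 lower (22.6 and 25.3% of all genes), and in DM1 1 was higher and 1 lower (16.8 and 17.5% of all genes).

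ER chaperones and other targets of ATF6 and XBP1, the other arms of the unfolded protein response, rose in 18 of 18 cases, with a median of 1.81. Hspa5, the main ER chaperone BiP, had 3750 and 3100 CPM at day 7, against 546 and 497 CPM at day 2 (6.57-fold). Sdf2l1 rose 14.6-fold, Dnajb9 8.98-fold and Calr 6.01-fold. Of these 18 genes, 6 were higher and 3 lower in DM3 (22.6 and 25.3% of all genes), and 9 higher and 0 lower in DM1 (16.8 and 17.5% of all genes). At day 7, 18 of the 18 were lower in DM3 than in DM2, where 25.2% of all genes were called lower and 27.5% higher. Other genes tied to ATF4 or CHOP rose in 13 of 18 cases and 2 fell, with a median of 0.96. Ero1l, an ER oxidase, had 1670 and 1590 CPM at day 7, against 86.0 and 89.1 CPM at day 2 (18.6-fold). Vldlr rose 13.7-fold, the hormone gene Fgf21 10.3-fold and Herpud1 9.29-fold, while Bcl2l11 fell 2.24-fold and Ddit4, an mTORC1 inhibitor, fell 1.47-fold. In DM3 10 of this list were higher and 4 lower, and in DM1 14 were higher and 1 lower.

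Of 13 other genes of amino acid sensing by mTORC1, 3 rose and 7 fell in DM2, with a median of -0.34, where 25.4% of all genes were called higher and 29.4% lower. Castor1, an arginine sensor (listed under its older symbol Gatsl3), fell 5.33-fold, and Castor2 (Gatsl2) fell 2.37-fold. Sesn1, the other well-studied sestrin gene of muscle, had 26.6 and 22.6 CPM at day 7, against 93.0 and 93.0 CPM at day 2, and fell 3.78-fold. Those that rose were Lars, the leucyl-tRNA synthetase that is also on the synthetase list (2.31-fold), Rragc (1.91-fold) and Rragd (1.53-fold). In DM3 2 of the 13 were higher and 6 lower (22.6 and 25.3% of all genes), and in DM1 3 were higher and 3 lower (16.8 and 17.5% of all genes).

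**Figure D4:**
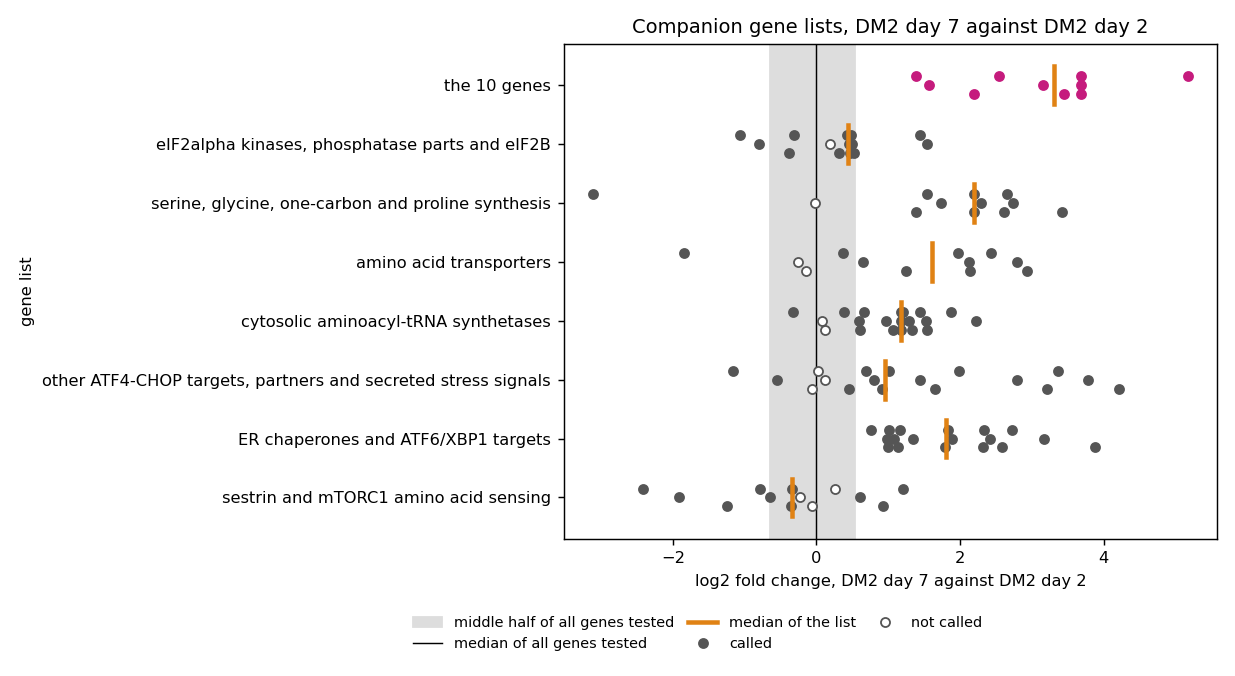
Log2 fold change of every tested gene in the 10-gene set and in 7 companion lists in DM2 at day 7 against day 2, with filled points for called and open points for not called genes. Orange bars are list medians, and the grey band covers the 25th to 75th percentile of all genes tested. The set has a median of 3.30, all 18 ER genes lie above 0, and the sestrin and mTORC1 list has a median of -0.34.

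Markers of cell identity moved over the same groups. The summed level of 10 myoblast and myocyte markers was 22300 and 21200 CPM in DM3 at day 7 and 976 to 2260 CPM in the other libraries, with 1050 and 1130 CPM in DM2 at day 7. In DM2 at day 7 against day 2, 6 of these 10 rose and 3 fell, where 25.4% of all genes rose and 29.4% fell. The 3 that fell were Myod1, Myf5 and Des. Their means were 18.3, 127 and 469 CPM at day 7, against 109, 289 and 922 CPM at day 2. The summed level of 10 adipocyte markers was highest in DM2 at day 7, 453 and 390 CPM, with 295 and 300 CPM in DM2 at day 2, 274 and 247 CPM in DM3 at day 7, 130 and 158 CPM in DM1 at day 7 and 75.8 and 76.6 CPM at day 0. Of these 10 genes 5 passed the filter on low counts, 2 rose and 2 fell in DM2 at day 7 against day 2. Those that fell were Pparg, with means of 11 CPM at day 7 and 23.6 CPM at day 2, and Plin4, with 19.2 and 42.1 CPM. Lpl made up most of the sum, with 415 and 350 CPM in DM2 at day 7. The defining adipocyte genes were near 0 there: Adipoq had 0.339 and 0.156 CPM, Plin1 0.979 and 0.856 CPM and Cidec 0.376 and 0.700 CPM, and Lep was listed at 0 in all libraries. The summed level of 10 leukocyte markers was 1.39 to 7.08 CPM, with 6.47 and 7.08 CPM in DM2 at day 7, nearly all from Cd68. The DM2 libraries of day 7 also had the highest share of processed pseudogene counts, 3.66 and 3.86%. The part of these differences in the levels of the 10 genes was not tested.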

How the data were processed

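Per the labels' protocols, poly(A) RNA was made into strand-specific libraries with 11 PCR cycles and sequenced as single-end reads of 50 bp. Per the submitters' processing notes, STAR 2.5.1b, RSEM 1.2.31, GRCm38.p5 and Gencode vM12 were used. The authors deposited RSEM expected counts per gene, not normalized, in which a read that matches several genes is divided among them. The expected counts were rounded and analysed in R 4.3.3 with edgeR 4.0.16 and limma 3.58.1: filterByExpr by group, TMM scaling, 1 fit of all 14 libraries with 7 residual degrees of freedom, the robust quasi-likelihood F test, and Benjamini-Hochberg adjustment over 15973 genes. The SE was derived from the log2 fold change and the root of its F statistic. The 15 comparisons between groups and 2 differences of changes were recomputed with library totals, RLE factors, DESeq2 1.42.0, no filter, a stricter filter, a replicate block, only the groups compared and each library left out. Leaving out the 3 libraries of low pseudogene share was added after seeing the data. The members and the companion lists (106 genes, 4 matched by an older symbol) were chosen with earlier results of these data known. From each companion list the text names up to 4 called genes with the largest change in DM2 at day 7 against day 2 and those that went against the list. By the same kind of rule it names the 10 genes most like the members and the 3 most like Atf4 by Pearson's r of log2 CPM (prior count 2). Libraries of 1 group differed by more than sampling noise, so none was counted as a duplicate. The chi-square per degree of freedom ran from 13.7 in DM2 at day 7 to 90.6 in DM3 at day 2, whose 2 libraries differed most. The procedure was tested on simulated data. Gene coordinates are from the Gencode vM21 annotation of GRCm38, and promoters from RefSeq. The depth limits precision mostly for the genes with few counts.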

Additional observations from a re-analysis of the deposited data

Results flagged for a closer look

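All 10 genes were noted because their change at day 7 against day 2 in DM2 differed from that in DM1 and in DM3 in the test of the difference (edgeR quasi-likelihood test, Benjamini-Hochberg adjusted p under 0.05). The DM2 change minus the DM1 change, on the log2 scale, was 2.04 for Atf4, 2.26 for Ddit3, 3.00 for Trib3, 2.47 for Chac1, 0.56 for Asns, 3.98 for Atf3, 1.06 for Atf5, 2.26 for Sesn2, 3.52 for Ppp1r15a and 1.21 for Psat1. The DM2 change minus the DM3 change was 1.42 for Atf4, 2.02 for Ddit3, 2.77 for Trib3, 1.04 for Chac1, 0.82 for Asns, 3.05 for Atf3, 1.55 for Atf5, 2.42 for Sesn2, 3.15 for Ppp1r15a and 1.66 for Psat1. The largest of these were for Atf3 and Ppp1r15a against DM1 and for Ppp1r15a and Atf3 against DM3, and the smallest was for Asns in each. Against DM1, Asns lost the call when libraries were scaled by their totals (0.33, adjusted p = 0.104).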

How the results depend on the processing

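Of 208 recomputed counts of members called, 199 were within 1.5 times the reported count. Of 2080 recomputed member fold changes, 1969 kept their direction and side of the threshold, 64 lost a call, 23 gained one and 24 changed sign, none of the 24 from a called value. For DM1 at day 7 against day 0 the count of 5 was 3 to 6 without 1 library and 3 when the 3 libraries of low pseudogene share were left out. For DM3 against DM2 at day 2 the count of 7 was 1 with only the groups compared, 2 to 6 without 1 library and 1 without the 3 libraries. For DM2 against DM1 at day 2 the count of 8 was 5 without the 3 libraries. The cause was not tested. The smallest log2 changes turned sign. Without 1 library each, they ran from -0.072 to 0.108 for Ppp1r15a in DM1 at day 2 against day 0, from -0.154 to 0.026 for it in DM3 at day 2 against day 0, and at DM1 day 7 against day 0 from -0.319 to 0.012 for Asns, from -0.139 to 0.204 for Atf3 and from -0.119 to 0.060 for Sesn2. They ran from -0.172 to 0.002 for Psat1 in DM3 at day 7 against day 2, and in DM3 against DM1 at day 2 from -0.090 to 0.073 for Ddit3 and from -0.120 to 0.057 for Sesn2. They ran from -0.111 to 0.209 for Atf4 in DM3 against DM2 at day 2, from -0.044 to 0.239 for Asns in DM2 against DM1 at day 2, and from -0.262 to 0.005 for Atf4 in DM3 against DM1 at day 7. With library totals, Sesn2 was 0.002 in DM1 at day 7 against day 0, Atf4 -0.006 in DM3 against DM2 at day 2, and Ddit3 -0.008 in DM3 against DM1 at day 7. With only the groups compared Atf3 was -0.03 in DM1 at day 7 against day 0, and with no filter Ddit3 was 0.002 in DM3 against DM1 at day 2. Without the 3 libraries Sesn2 was 0.059 in DM1 at day 7 against day 0 and Atf4 -0.014 in DM3 against DM2 at day 2. The labels do not say whether same-numbered libraries are pairs. Deviations of same-numbered libraries had correlations of -0.63 to 0.52 (median 0.005, 2 of 21 pairs of groups over 0.1). This spread to both sides of 0 does not settle it. With the replicate block, 10 members stayed called higher in DM2 at day 7 against day 2, and the calls lost were Atf5 in DM3 at day 7 against day 0 (-0.27, adjusted p = 0.0531), Ppp1r15a in DM3 against DM1 at day 7 (0.29, adjusted p = 0.0513) and Eif2b4 in DM2 at day 7 against day 2 (-0.32, adjusted p = 0.0546).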
